A study of Mus musculus with 6 samples.

Results

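Claudins are the membrane proteins that form the strands of tight junctions, the seals between neighbouring cells of an epithelium or endothelium. Different claudins make the seal tight or form pores for particular ions or water, and cells combine several of them. Along the kidney tubule each segment is known for its own set, whereas mammary epithelium and vessel walls use others. The set described here held 10 claudin genes chosen by name, Cldn1, Cldn2, Cldn3, Cldn4, Cldn5, Cldn7, Cldn8, Cldn10, Cldn16 and Cldn19, out of 31053 genes in the deposited tables. All 10 were found there, as were 25 further genes with a claudin-type symbol.

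The study tested a microfluidic platform that digests, breaks up and filters minced tissue, and asked which cells it releases compared with a standard digest. The kidney came from male C57BL/6 mice of 12 weeks, an inbred laboratory strain. The tumor came from female MMTV-PyMT mice of 10 weeks, in which a viral promoter active in mammary epithelium drives an oncogene so that tumors arise from that epithelium. Each tissue gave 3 libraries of single cells, with 1 library per condition. These were a control digested for 60 min in a shaken tube, a platform interval collected at 15 min and a platform interval collected at 60 min. By the study's reporting summary, all conditions of a replicate used tissue of the same source mouse, and by its methods the platform intervals were successive collections, so that the 60 min interval followed the removal of cells at 15 min. All 6 samples were minced, digested with 0.25% type I collagenase, treated with DNase and red cell lysis buffer and sorted for live cells. The cell types below are those that these steps left.

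Because each condition is a single library, the differences given here have no replicates behind them and are described without a test. Levels are counts of unique molecular identifiers (UMIs, 1 per captured RNA molecule) scaled to a total of 1000000 UMIs of the same cells (CPM). Their 95% intervals are exact Poisson intervals, shares of cells carry exact binomial (Clopper-Pearson) ones, and all of these cover counting error only. A gene was counted as higher or lower where its CPM ratio passed 2-fold with at least 20 UMIs in the 2 libraries together. The 15 min and the 60 min comparisons share their control library.

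The kept cells numbered 5886 to 9936 per kidney library and 5736 to 6024 per tumor library, with 33644880 to 61434200 and 50661627 to 58014175 UMIs. The 15 min kidney library stood apart, with a median mitochondrial share of 20.4% against 7.38% and 8.59% in the other kidney libraries, and 85.7% of its cells were proximal tubule-like. Libraries of a tissue shared 1.48 to 2.04% of their cell barcodes in kidney and 0.440 to 0.503% in tumor. Cells were put into cell types by marker genes, none of them a claudin, and are called "-like" for that reason. Every marker of every cell type had a UMI in the cells named for it. As the cells were chosen by these markers, this does not check the names. Between 3.42 and 19.8% of the cells of a library passed no cell type or several unrelated ones and were left unnamed.

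The deposited tables count the 3′ ends of transcripts, so they do not show from which start a claudin transcript came. The sequences before 4 claudin starts are printed here because they belong to Cldn4, the claudin that differed most between the control and 15 min libraries within tumor epithelial-like cells, to its neighbour Cldn3, which did not pass 2-fold in those cells, and to Cldn10, which has a pair of far-apart starts. Cldn4 (chr5:134945119-134946934, minus strand) and Cldn3 (chr5:134986214-134987472, plus strand) lie 39.3 kb apart on mouse genome build GRCm38 and point away from each other. Cldn10 (chr14:118787908-118875489, plus strand) has starts 67.1 kb apart, and its UMIs are the sum of both. Each sequence is the 250 bases before a start in RefSeq on GRCm38.p6, written 5′ to 3′ along the gene. Capitals mark TGANTCA, the letters that AP-1 factors such as Fos and Jun bind, and GGGCGG or its reverse CCGCCC, the GC box letters, on either strand. These letters were chosen after the sequences had been seen.
Cldn4, chr5:134946935-134947184, minus strand: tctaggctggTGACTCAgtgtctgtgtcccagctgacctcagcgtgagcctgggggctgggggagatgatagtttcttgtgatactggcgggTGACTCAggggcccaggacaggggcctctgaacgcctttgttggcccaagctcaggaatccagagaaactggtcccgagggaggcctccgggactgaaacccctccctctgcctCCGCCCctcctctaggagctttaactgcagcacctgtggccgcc
Cldn3, chr5:134985964-134986213, plus strand: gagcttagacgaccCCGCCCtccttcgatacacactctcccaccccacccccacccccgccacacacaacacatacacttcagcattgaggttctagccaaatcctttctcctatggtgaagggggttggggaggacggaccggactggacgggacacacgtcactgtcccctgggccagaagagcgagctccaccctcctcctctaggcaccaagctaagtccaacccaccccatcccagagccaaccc
Cldn10 first start, chr14:118787621-118787870, plus strand: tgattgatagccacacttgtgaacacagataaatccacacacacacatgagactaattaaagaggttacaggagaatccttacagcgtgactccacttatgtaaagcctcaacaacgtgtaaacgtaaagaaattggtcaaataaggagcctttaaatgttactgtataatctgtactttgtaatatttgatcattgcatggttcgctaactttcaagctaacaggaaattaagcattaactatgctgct
Cldn10 second start, chr14:118854700-118854949, plus strand: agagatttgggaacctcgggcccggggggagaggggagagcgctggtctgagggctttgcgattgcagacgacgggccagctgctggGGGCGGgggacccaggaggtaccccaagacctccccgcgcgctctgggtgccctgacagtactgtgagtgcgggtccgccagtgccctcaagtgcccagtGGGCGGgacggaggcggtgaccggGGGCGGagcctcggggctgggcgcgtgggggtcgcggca
The Cldn4 sequence held 2 matches to TGANTCA, the first bases of which lie at -240 and -158 from the start, and 1 GC box. The Cldn3 sequence held no match to TGANTCA and 1 GC box. The 2 Cldn10 sequences differed most in base composition, with 36.0% G and C and no GC box before the first start and 72.4% and 3 GC boxes before the second. Of 32851 mouse sequences of this length, 6.75% held TGANTCA and 32.7% a GC box, and their median G and C content was 52.4%. RefSeq sequences were matched for 9 of the 10 genes, in 12 windows, of which 1 held TGANTCA and 8 a GC box. Cldn8 had no entry. A match of letters does not show binding.

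Among cell types with at least 50 cells, most kidney claudins were concentrated in 1 or a few tubule cell types. Cldn2 was highest in proximal tubule-like cells, Cldn10, Cldn16 and Cldn19 in thick ascending limb-like cells, and Cldn3, Cldn4, Cldn7 and Cldn8 in collecting duct principal-like cells. Cldn5 was highest in endothelial-like cells and Cldn1 in dendritic-like cells. Among smaller classes, 17 thin limb-like cells had Cldn2 at 114 CPM (54.6 to 209) and 6 podocyte-like cells had Cldn5 at 1434 CPM (999 to 1995). In the tumor, Cldn2, Cldn3, Cldn4, Cldn7 and Cldn10 were highest in epithelial-like cells and Cldn5 again in endothelial-like cells. Cldn1 was again highest in dendritic-like cells, with epithelial-like cells next, and Cldn8 was low in every tumor cell type. Cldn16 had 1 UMI and Cldn19 had 8 UMIs in all tumor libraries together.

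**Figure D1:**
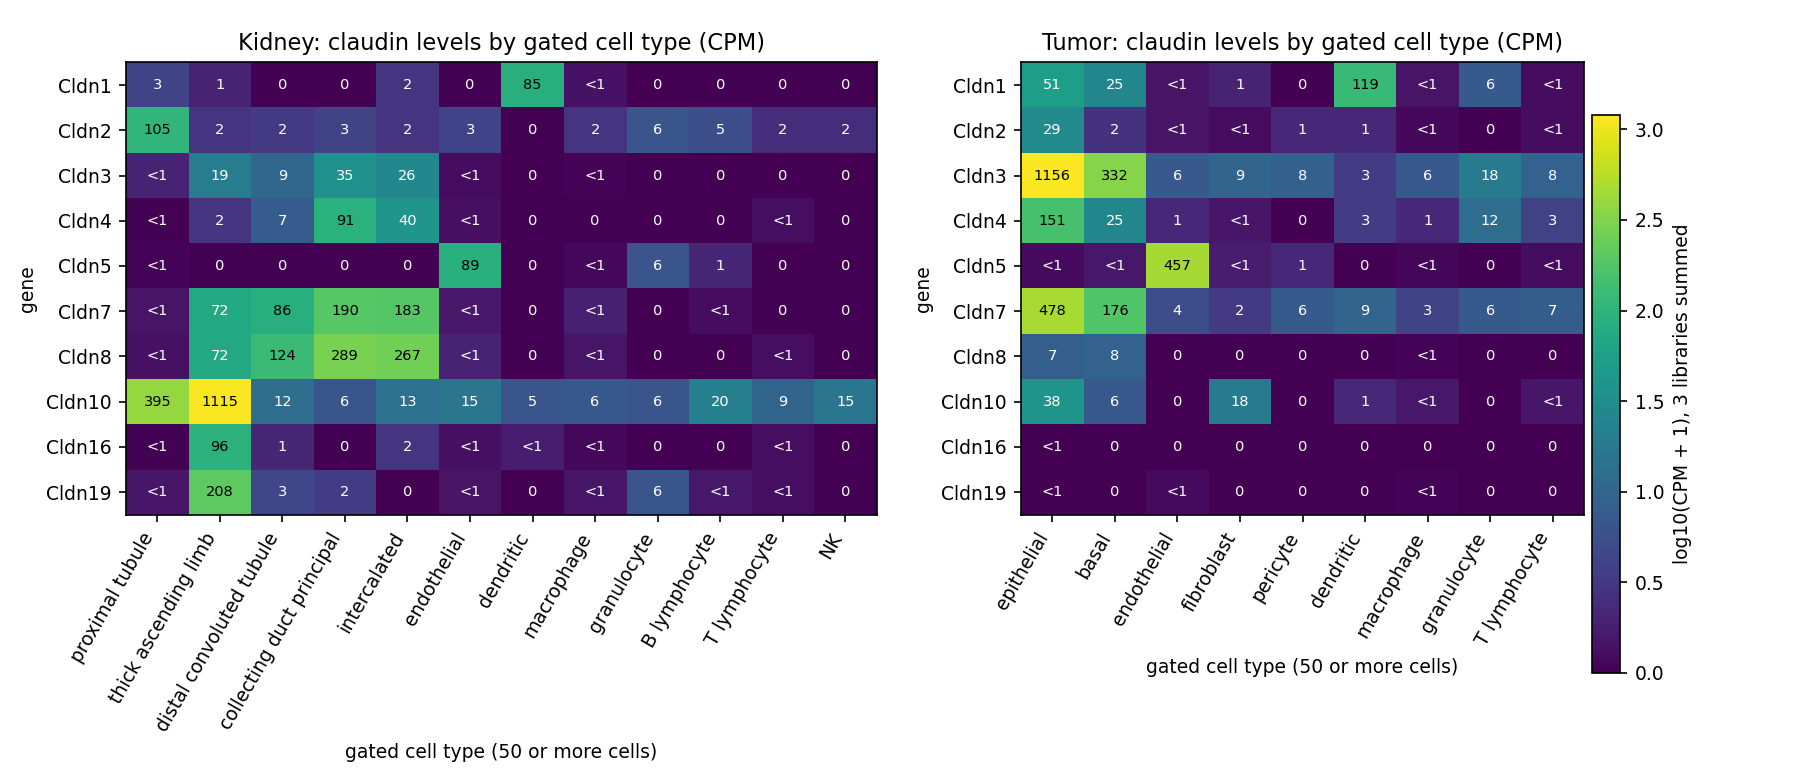
Levels of the 10 claudins in each marker-gated cell type with at least 50 cells, in CPM with the 3 libraries of a tissue summed, written in each cell of the map and shaded as log10(CPM + 1). Most kidney claudins are highest in tubule cell types, and Cldn7, Cldn8 and Cldn10 span several of these. Cldn5 is highest in endothelial-like and Cldn1 in dendritic-like cells. In the tumor 1 block of epithelial-like and basal-like cells holds Cldn3 and Cldn7.

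Cldn2, which forms pores for sodium and water in leaky epithelia, marked the proximal tubule. Over the 13289 proximal tubule-like cells it reached 105 CPM (103 to 107), and no other kidney cell type of at least 50 cells exceeded 6 CPM. Within these cells Cldn2 had 75.9 CPM (72.0 to 79.9) in the control, 114 (111 to 117) at 15 min and 106 (101 to 110.4) at 60 min. The control was thus the lowest of the 3 libraries, by 1.51-fold against the 15 min library, within the 2-fold limit. With every cell thinned to 1000 UMIs, the share of cells with a Cldn2 UMI was 7.34% (6.43 to 8.34) in the control, 11.1% (10.4 to 11.8) at 15 min and between 9.86 and 12.2% by its interval at 60 min. Without thinning, these shares were 30.4, 51.3 and 41.1%, at median depths of 5492.0, 7182.0 and 5823.5 UMIs. In macrophage-like cells, which should lack the gene, the thinned share was 0.197% and the unthinned one 1.17% at a median of 6163.5 UMIs. Cells were also scored for the S1, S2 and S3 segments of the proximal tubule by 5 markers each. Cldn2 was at 115 CPM (111 to 119) in S1-like and 121 (117 to 125) in S2-like cells but 75.3 (70.7 to 80.2) in S3-like cells.

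Cldn10, whose alternative forms are pores for anions or for cations, was the highest of the claudins in proximal tubule-like and in thick ascending limb-like cells. It had only 11.6, 5.69 and 13.2 CPM in distal convoluted tubule-like, collecting duct principal-like and intercalated-like cells. In proximal tubule-like cells it stood at 413 CPM (404 to 422) in the control, 400.2 (395 to 405) at 15 min and 359.8 (351 to 369) at 60 min. These 3 levels lay within 1.15-fold of the control. Cldn10 was higher in S2-like cells, at 443 CPM (434 to 451), than in S1-like cells at 351 (344 to 358) or S3-like cells at 362 (352 to 373). Of the proximal tubule-like cells, 3629 of 13289 (27.3%) had segment scores less than 0.25 apart, so the segments are ranges rather than types. Cldn3 had 2 UMIs in S1-like cells, 7 in S2-like cells and 71 in S3-like cells, at 0.0712, 0.269 and 5.42 CPM. Cldn1, a barrier claudin, was low throughout the proximal tubule, at 3.36, 2.91 and 4.36 CPM in the 3 libraries in the order control, 15 min, 60 min, with overlapping intervals between the control and each platform library.

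In the thick ascending limb, where Cldn16 and Cldn19 are known for the reabsorption of calcium and magnesium between cells, the platform and control libraries lay close together. Cldn16 had 99.2 CPM (70.9 to 135) in the control, 97.6 (65.4 to 140.1) at 15 min and 93.9 (78.0 to 112) at 60 min. Cldn19 had 203 CPM (162 to 252), 209 (160.0 to 267) and 209 (184 to 235) in the same order. The intervals of the 3 libraries overlapped for both genes, and the log2 ratios to the control were between -0.08 and 0.04. Cldn10 was at 1327 CPM (1217 to 1444) in the control and 1437 (1304 to 1579.8) at 15 min, and at 975 (922 to 1030.3) at 60 min. The 60 min library was the lowest for Cldn10, at a log2 ratio to the control of -0.44 (-0.59 to -0.30), within 2-fold. Cldn7 and Cldn8 were also present in these cells, at 67.0 to 74.7 and 69.3 to 80.8 CPM over the libraries. The numbers of cells behind these levels were 120, 64 and 339.

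Thick ascending limb-like cells with and without Cldn16 differed in the other claudins. A Cldn16 UMI was found in 111 of 523 cells, with a median depth of 4908.0 UMIs against 2550.0 in the 412 cells without. Cldn10 stood at 559 CPM in the cells with Cldn16 and at 1349 CPM in those without. Cldn19 stood at 241 and 193 CPM in the same order, and 72 of the 111 cells also had a Cldn19 UMI while 50 had a Cldn10 UMI. Cldn10 was thus lower, and Cldn19 slightly higher, where Cldn16 was detected. Among genes found in at least 20% of the cells of a group, the cells with Cldn16 were higher in Foxq1 (159 against 21.3 CPM) and Irx3 (75.9 against 17.8). Pth1r, the parathyroid hormone receptor (668 against 177), and Tmem52b, a distal convoluted tubule marker here (547 against 168), were higher too. The first of the lower genes was Cd74, a gene of antigen presentation (54.0 against 530.2). Also lower were Fxyd2, a regulator of the sodium pump (3690.3 against 9859), Cryab (54.0 against 274) and Ranbp3l (32.1 against 111). Whether immune RNA or mixed cells gave the Cd74 UMIs was not tested. Cells with a Cldn19 UMI, in contrast, had more Cldn10 than those without, at 1229 against 943 CPM. These contrasts were chosen after the values had been seen and compare cells of the same libraries, so no test is given.

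Cldn8 and Cldn7 followed each other along the distal nephron. Cldn8, a barrier claudin that recruits Cldn4 into a chloride pathway in the collecting duct, was at 289 CPM (259 to 320.2) in collecting duct principal-like cells and 267 (225 to 315) in intercalated-like cells. It was at 124 CPM in distal convoluted tubule-like cells and 72.0 CPM in thick ascending limb-like cells. Cldn7, another claudin of the distal nephron, had 190.2 CPM (167 to 216), 183 (148 to 223), 85.9 and 72.5 CPM in the same order of cell types. For each gene the intervals of principal-like and intercalated-like cells overlapped, so these neighbours in the order are not told apart. Over the 12 kidney cell types the 2 genes correlated at r = 0.997 on the log2(CPM + 1) scale, points that share their libraries. Among genes that reached 50 CPM in a cell type, Cldn7 was the most like Cldn8, followed by Epn3 and Atp6v1b1, a proton pump subunit of intercalated cells.

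The principal-like cells numbered 113 in the control and 162 at 60 min but 15 at 15 min, whose median depth was 680.0 UMIs, so only the first pair was compared. Cldn8 had 321 CPM (273 to 375) in the control and 261 (225 to 301) at 60 min, Cldn7 220.2 (181 to 266) and 165 (136 to 197), and Cldn4 97.0 (71.5 to 129) and 88.0 (67.6 to 113). All 3 were somewhat lower at 60 min, at log2 ratios of -0.30 (-0.61 to 0.02), -0.42 (-0.81 to -0.03) and -0.14 (-0.71 to 0.43), and none passed 2-fold. In the smaller intercalated-like class, with 39, 21 and 35 cells, Cldn8 had 220.2, 285 and 303 CPM and Cldn7 186, 187 and 177 CPM in the control, 15 min and 60 min libraries. Their intervals overlapped among the 3 libraries. Cldn4 had 14, 2 and 5 UMIs there. Within principal-like cells, Cldn8 was at 364 CPM in the 75 cells with a Cldn4 UMI and 250.0 in the 215 without, while Cldn3 was at 16.9 and 44.1 CPM. Median depths were 5256.0 and 2916.0 UMIs.

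Much of the kidney Cldn4, a claudin that tightens epithelia against sodium, came from a few cells that passed no gate. Of 249 Cldn4 UMIs in the control, 48 were in principal-like cells, 14 in intercalated-like cells and 175 in 16 cells without a cell type. Of the latter, 10 cells with 3 or more UMIs each held 168. At 60 min, 79 of 158 UMIs were in cells without a cell type, 42 of them in 5 such cells, whereas the 15 min library had 4 Cldn4 UMIs in all and none in such cells. The 15 cells, 10 from the control and 5 from the 60 min library, had the keratins Krt18 at 2542 CPM and Krt8 at 2417 CPM. These were at 9.35 and 29.4 CPM in the 2852 unnamed cells without a Cldn4 UMI, the group compared here. The unnamed cells with fewer than 3 Cldn4 UMIs but not 0 were left out. The 15 cells also had Upk3b, a uroplakin, at 258 against 1.18 CPM, Cryab at 12011 against 82.0 and Ppl at 210.2 against 1.18. Emcn and Plvap, genes of endothelium, and Apoe were at 0 in the 15 cells. The first gene in the order was Sptssb, a thin limb marker here (468 against 0.458 CPM, in 5 of the 15 cells), and Slc4a1, an intercalated marker, was also among the first 10 (162 against 0.850, in 3 cells). Of the 15 cells, 4 had passed several unrelated marker lists, and the cells are described by these genes only.

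Cldn5, the main claudin of the tight junctions of blood vessels, differed between the endothelial-like cells of the 2 tissues. In kidney it had 73.2 CPM (62.0 to 85.8) in the control, 106 (88.2 to 126) at 15 min and 91.0 (84.5 to 97.8) at 60 min. In the tumor it had 401 CPM (368 to 436), 555 (518 to 593) and 445 (428 to 462) in the same order. Each tumor library was above each kidney library, and in both tissues the 15 min library was the highest and the control the lowest. All platform-to-control ratios of Cldn5 in these cells were within 2-fold, at log2 0.53 and 0.31 in kidney and 0.47 and 0.15 in the tumor. Tissue, strain, sex and age all differ between these groups and cannot be told apart.

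The kidney level came from a small number of cells. Cldn5 was at 0 in 2729 of 2900 kidney endothelial-like cells, and 104 cells with 2 or more UMIs held 935 of the 1002 UMIs. In the tumor, 623 of 1186 endothelial-like cells (52.5%) had a Cldn5 UMI, against 171 of 2900 (5.90%) in kidney, at median depths of 6920.0 and 3727.0 UMIs. Thinned to 1000 UMIs, the shares were 23.2% (20.8 to 25.7) and 3.70% (3.03 to 4.46). In kidney macrophage-like cells the thinned share was 0.0493%. The share of kidney endothelial-like cells with 5 or more UMIs was 2.16, 1.88 and 1.98% in the control, 15 min and 60 min libraries, and the highest cell had 47.

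The 104 kidney cells, 20 from the control, 10 from the 15 min and 74 from the 60 min library, were higher in some genes as a summed group, though none of those named was found in all of the cells. Aqp1, a water channel, had 4709 CPM in them against 23.6 in endothelial-like cells without Cldn5, and Slc14a1, the urea transporter of vasa recta endothelium, had 569.6 against 11.2. Npnt (501 against 3.34), Hpgd (387 against 2.10), Cxcl12, a chemokine of arterial endothelium (322 against 3.06), and Bmx, a kinase of arterial endothelium (81.7 against 0.286), were higher too. Lower in them were Igfbp5 (1051 against 4883), Rgcc (550.2 against 2431) and Ehd3, a gene of glomerular endothelium (90.3 against 394). Aqp1 was detected in 58 of the 104 cells, Npnt in 54, Slc14a1 in 35 and Bmx in 26. Of the 6 podocyte-like cells, 5 had Cldn5, with 35 UMIs in all, a class too small for a comparison.

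In the tumor, the contrast between endothelial-like cells ran along other genes. The 268 cells with 5 or more Cldn5 UMIs were higher than the 563 without in Trp53i11 (265 against 45.0 CPM), Pdgfa, a growth factor for pericytes (103 against 26.8), Igf1 (69.6 against 9.22) and Pcdh17 (118 against 41.8). They were lower in Ackr1 (13.3 against 175), Selp (143 against 759), Sele (110.2 against 288) and Vwf (47.2 against 218), genes typical of venules and of endothelium that binds leukocytes. Median depths were 8833.0 and 5891.0 UMIs. These names are a choice from the first 10 genes in each direction, and no list of vessel genes was tested.

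**Figure D2:**
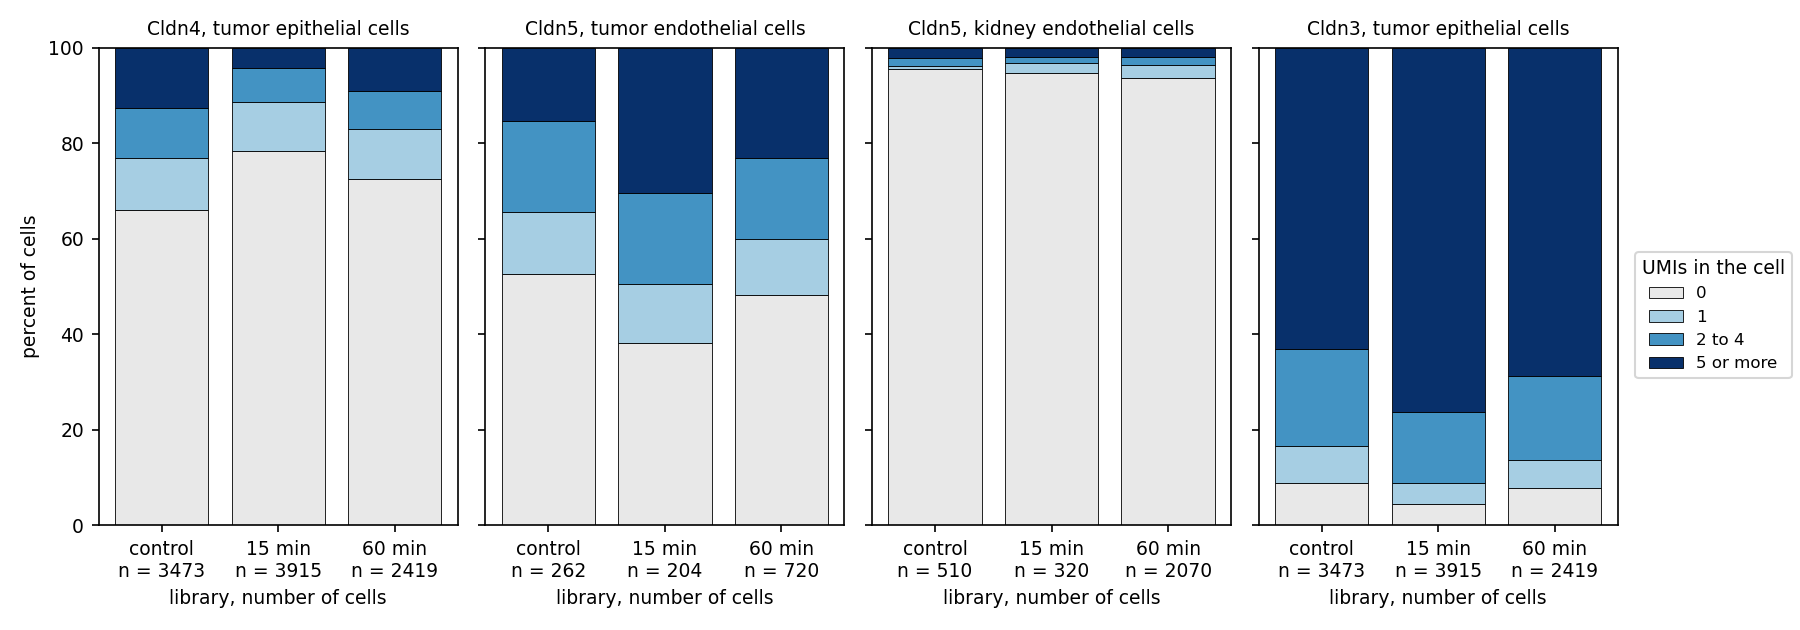
Percent of cells with 0, 1, 2 to 4 and 5 or more UMIs of a claudin in the control, 15 min and 60 min libraries, with the number of cells under each bar. Cldn4 had 5 or more UMIs in 12.7, 4.29 and 9.05% of tumor epithelial-like cells, Cldn5 was frequent in tumor and rare in kidney endothelial-like cells, and Cldn3 had 5 or more UMIs in 63.0 to 76.2% of tumor epithelial-like cells.

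Cldn1 was found in dendritic-like cells of both tissues. In kidney it had 50.9 CPM (31.1 to 78.6) in 35 control cells, 69.2 (8.38 to 250.1) in 4 cells at 15 min and 101 (81.0 to 125) in 75 cells at 60 min. In the tumor it had 64.3 CPM (23.6 to 140.0) in 7 control cells, 41.4 (8.54 to 121) in 7 cells at 15 min and 137 (109 to 169) in 43 cells at 60 min. The 60 min library was the highest in each tissue, and its interval lay above that of the control in kidney but overlapped it in the tumor. In kidney, 6 of the 35 control cells and 24 of the 75 cells at 60 min had a Cldn1 UMI. The intervals do not cover differences between cells. Among kidney dendritic-like cells with no Ccr7, a receptor of migrating dendritic cells, 28 of 62 with a Clec9a or Xcr1 UMI had Cldn1, at 144 CPM (118 to 174). Clec9a and Xcr1 mark the cross-presenting subset. Both genes, Cd209a and Ccr7 are among the 6 dendritic markers of the gate, of which a cell needed 3. The groups compared here therefore depend on the gate, and a cell can carry markers of both subsets. Of 21 kidney dendritic-like cells with a Cd209a UMI, a gene of the other main subset, and no Ccr7 UMI, none had a Cldn1 UMI. A floor of 3 cells out of these 21 corresponds to a share of 14.3% with a Cldn1 UMI, which is not the exact binomial limit. It sets no limit on cells that express the gene. The 31 kidney cells with Cldn1 were higher than the 83 without in Xcr1 (650.3 against 130.1 CPM), in Il12b, a subunit of interleukin 12 (1323 against 186), and in Itgae (57.5 against 2.41). They were lower in Cd209a (39.8 against 557), which was detected in 2 of the 31. Of 36 kidney cells with a Ccr7 UMI, 3 had Cldn1, at 10.1 CPM (2.76 to 26.0), whereas in the tumor 12 of 31 did, at 103 CPM (74.2 to 140.3). The tumor cells with Clec9a or Xcr1 and no Ccr7 had Cldn1 in 18 of 24 cells, at 147 CPM (110.0 to 193). Thinned to 1000 UMIs, 2.65% of kidney and 12.3% of tumor dendritic-like cells had a Cldn1 UMI, against 0.0493 and 0.0350% of macrophage-like cells.

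Tumor epithelial-like cells carried several claudins at once. At least 2 of the 10 claudins were detected in 88.0% of 9807 cells, and in 31.5% of cells thinned to 1000 UMIs. Cldn3, a barrier claudin of mammary epithelium, had 1119 CPM (1108 to 1131) in the control, 1214 (1203 to 1225) at 15 min and 1108 (1095 to 1122) at 60 min. Cldn7 had 537 CPM (529 to 545), 451 (444 to 457) and 443 (435 to 452) in the same order. Cldn3 was within 1.08-fold and Cldn7 within 1.21-fold of the control in both platform libraries. The share of thinned cells with Cldn3 was 60.7, 61.8 and 58.4%, and with Cldn7 34.7, 34.0 and 32.9%. In macrophage-like cells these shares were 0.524 and 0.280%.

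Cldn4 was the exception among the claudins of tumor epithelial-like cells. It had 243 CPM (237 to 248) in the control, 72.0 (69.4 to 74.7) at 15 min and 159.6 (155 to 165) at 60 min. The control was the highest and the 15 min library the lowest, at log2 ratios of -1.75 (-1.81 to -1.69) and -0.60 (-0.66 to -0.55), a fold of 3.37 and 1.52. Cldn4 was the only 1 of 7 claudins tested in these cells past 2-fold at 15 min, where 4.04% of all genes tested were lower past 2-fold and 2.34% higher. At 60 min none of the 7 passed, against 1.97 and 1.94% of all genes. The median log2 ratio of the 7 claudins was 0.08 at 15 min, beside 0.19 over all genes tested. Thinned to 1000 UMIs, Cldn4 was found in 11.9, 4.90 and 8.14% of cells, against 0.210% of macrophage-like cells. Unthinned shares were 34.0, 21.7 and 27.5% at median depths of 8180.0, 9757.0 and 9166.0 UMIs, against 1.31% of macrophage-like cells at 10830.0 UMIs.

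The difference in Cldn4 was also found in subsets of the epithelial-like cells. In cells with at least 3 markers of neither proliferation nor milk secretion it had 252, 73.1 and 163 CPM in the control, 15 min and 60 min libraries, and in cells with at least 3 secretory markers 136, 55.6 and 159 CPM. In 163 proliferating cells it had 41.6, 30.6 and 61.7 CPM, with overlapping intervals. The 15 min library was the lowest in each subset, and the control was the highest only outside the secretory and proliferating cells. Krt8, a keratin of luminal cells and 1 of the markers of this cell type, had 3105, 1488 and 1862 CPM in the same order, while Epcam, another such marker, had 2465, 2395 and 2257. Atf3, a stress response gene, had 960.3, 549.5 and 1046 CPM, whereas Jun had 1963, 2635 and 2721 and Fos 2545, 2742 and 3280.2. Their part in the Cldn4 difference was not tested.

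Cldn4 was unevenly spread over the tumor epithelial-like cells. It was at 0 in 7112 of 9807 cells, and the 10% of cells with the most UMIs held 81.3% of them, compared with 30.2% for Cldn3. The 827 cells with 5 or more Cldn4 UMIs, 440 from the control, 168 from the 15 min and 219 from the 60 min library, had a median of 13948.0 UMIs against 8280.0 in cells without. They were higher in Hbegf, an EGF receptor ligand (591 against 56.5 CPM), Plaur, the urokinase receptor (87.6 against 7.17), Fosl1, an AP-1 factor (73.2 against 6.40), Emp1 (296 against 42.0) and Maff (215 against 32.5). They were lower in Cd74, the invariant chain of class II antigen presentation (41.4 against 302), and Cst3 (576 against 1833). Cldn3 was also higher where Cldn4 was detected, at 1517 against 975 CPM. Of the 827 cells, 298 had a Plaur UMI, 335 a Fosl1 UMI and 510 a Maff UMI.

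Cldn1 and Cldn4 overlapped in the tumor epithelium. Cldn1 had 56.7 CPM (54.1 to 59.4) in the control, 46.7 (44.6 to 48.9) at 15 min and 50.3 (47.4 to 53.2) at 60 min, all within 1.21-fold of the control. It had 75.0 CPM in cells with a Cldn4 UMI and 38.8 in those without. The 123 cells with 5 or more Cldn1 UMIs had Cldn4 at 922 against 104 CPM, Plaur at 113 against 13.0, Fosl1 at 97.5 against 12.2 and the chemokine Cxcl1 at 671 against 96.5. Unlike the cells rich in Cldn4, they were higher in Cd74, at 1289 against 201 CPM.

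Cldn10 and Cldn2 also overlapped among tumor epithelial-like cells. Cldn10 had 40.1 CPM (37.9 to 42.4) in the control, 42.5 (40.5 to 44.6) at 15 min and 29.1 (27.0 to 31.4) at 60 min. Cldn2 had 25.8 CPM (24.1 to 27.7), 36.4 (34.5 to 38.3) and 19.9 (18.1 to 21.8) in the same order. Both were highest at 15 min and lowest at 60 min, and within 2-fold of the control. Cldn10 had 71.9 CPM in cells with a Cldn2 UMI and 29.2 in those without, and 450 cells held both. The 188 cells with 5 or more Cldn10 UMIs were higher in Aqp5, a water channel of secretory epithelium (4224 against 859 CPM), Car6, a secreted carbonic anhydrase (205 against 27.9), and Enho (162 against 21.6). They were lower in Ltf, lactoferrin (78.3 against 3057), Krt19 (39.5 against 477), Slpi (4.18 against 261) and Spp1, osteopontin (2308 against 18546). The 585 cells with 2 or more Cldn2 UMIs were likewise higher in Aqp5 (2089 against 937) and lower in Slpi (32.4 against 278). Cldn8 was low in epithelial-like cells, at 5.28 CPM (4.51 to 6.15) in the control, 9.47 (8.53 to 10.5) at 15 min and 7.04 (6.01 to 8.20) at 60 min.

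In basal-like cells, the contractile layer around the luminal cells, Cldn3 had 279.8 CPM (216 to 356) in 24 control cells, 715 (632 to 805) in 38 cells at 15 min and 206 (179.7 to 235) in 116 cells at 60 min. Cldn7 had 169.6, 339 and 119 CPM in the same order. The 15 min library was the highest for both genes. No fold was called, since the control held fewer than 50 such cells. Over the 3 libraries, Cldn3 was detected in 67 of 178 basal-like cells (37.6%), against 93.1% of epithelial-like cells. Cells that passed both the basal and the epithelial list were counted as basal-like, so cells of mixed type can be among them. Cldn10 appeared in fibroblast-like cells, with 5 UMIs in 28 control cells (18.9 CPM) and 0 in 60 cells at 15 min. A floor of 3 cells out of these 60 corresponds to a share of 5.00% with a UMI, which is not the exact binomial limit. At 60 min, 285 cells held 63 UMIs (20.3 CPM, 15.6 to 26.0). Of the fibroblast-like cells 52 had a Cldn10 UMI, and they were higher in Cxcl14, a chemokine (2039.7 against 506 CPM), and lower in Dpp4 (37.5 against 135). Aqp5, higher with Cldn10 in epithelial-like cells too, had 241 against 80.4 CPM and was found in 29 of the 52. Whether epithelial RNA or mixed cells gave the Cldn10 UMIs was not tested. Thinned to 1000 UMIs, 2.50% of fibroblast-like cells had Cldn10, a level near that of 1 UMI per cell in few cells.

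**Figure D3:**
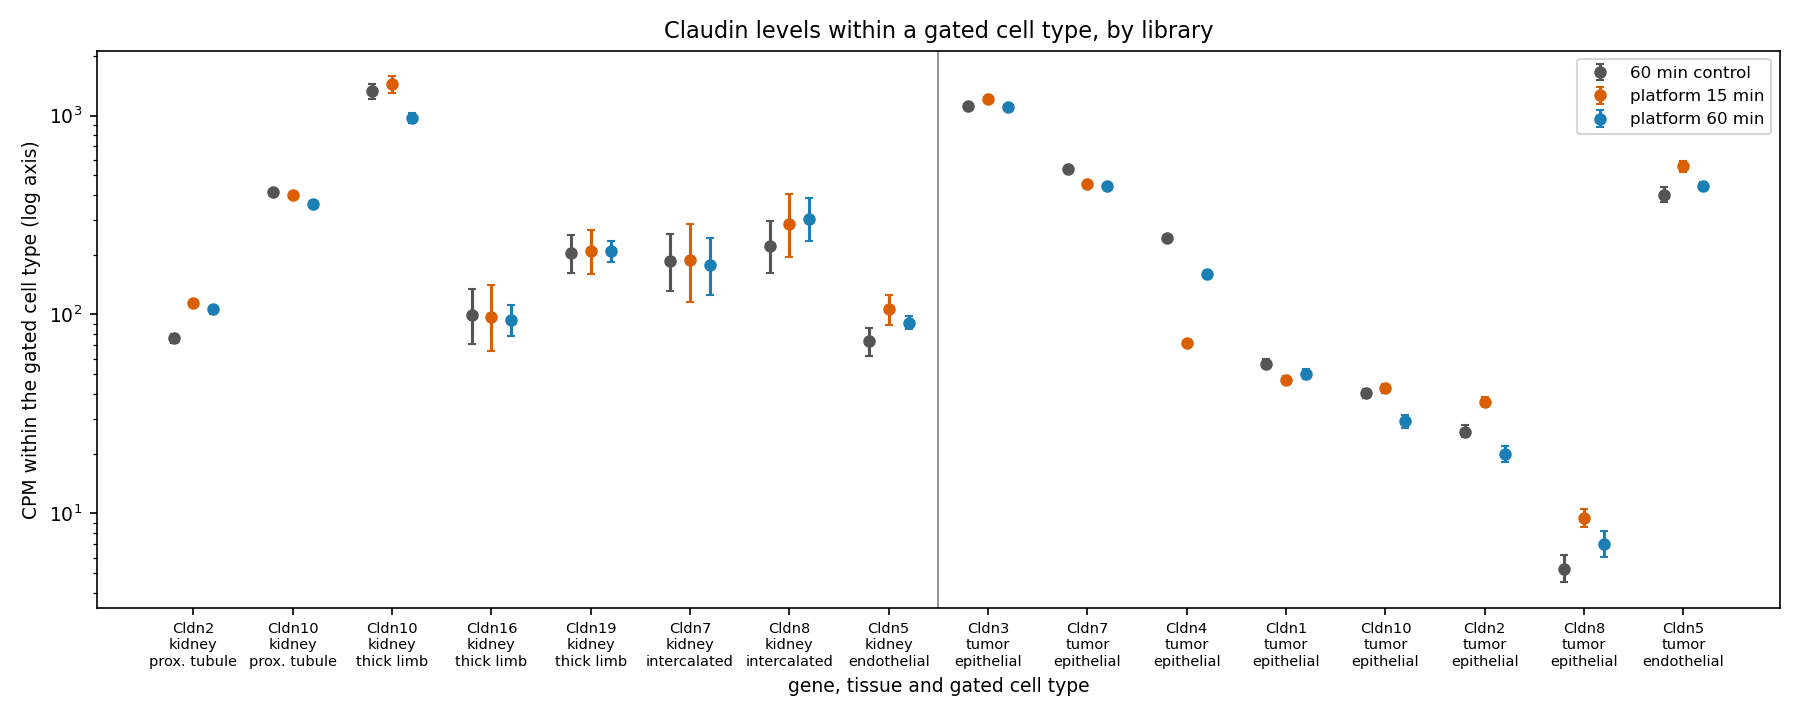
Levels of claudins within the cell type that carries them, in CPM on a log axis, in the control, 15 min and 60 min libraries, with exact Poisson 95% intervals as bars (counting error only). Of the points shown, Cldn4 in tumor epithelial-like cells has the widest gap between the control (243) and the 15 min library (72.0).

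Over whole kidney libraries, the 15 min interval differed most from the control. Cldn2 had 46.0, 105 and 43.1 CPM in the control, 15 min and 60 min libraries, and Cldn10 269, 377 and 178. Cldn7 had 10.5, 1.35 and 10.3 CPM, Cldn8 11.3, 1.76 and 12.4, and Cldn4 7.40, 0.0651 and 3.02. The claudins of the proximal tubule were thus highest at 15 min and those of the collecting duct lowest. At 15 min, 7 of 10 claudins were lower past 2-fold, where 28.5% of all 14632 genes tested were, and 1 was higher, where 2.23% were. The median log2 ratio was -1.38 over the claudins and -0.42 over all genes tested. Cldn2 was higher at 1.20 (1.12 to 1.28), and Cldn4 at -6.83 (-8.72 to -5.45), Cldn7 at -2.96 (-3.32 to -2.61), Cldn8 at -2.69 (-3.01 to -2.38), Cldn16 at -1.71, Cldn3 at -1.48, Cldn19 at -1.27 and Cldn5 at -1.11 were lower. With totals that leave out mitochondrial UMIs, Cldn5 was at -0.95, within 2-fold, and 6 claudins were lower. In such library sums, fewer cells of a type and less RNA per cell cannot be told apart.

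The library differences moved with the share of proximal tubule-like cells, which was 85.7% at 15 min and 29.8% at 60 min against 53.2% in the control. Collecting duct principal-like cells made up 1.92, 0.179 and 1.63%, and thick ascending limb-like cells 2.04, 0.763 and 3.41%. The ratios were therefore also taken over cells outside the proximal tubule gate, an alternative added after the data had been seen. There, 3 of 10 claudins passed 2-fold at 15 min, Cldn2 at 1.43 and Cldn5 at 1.15 higher and Cldn4 at -4.97 lower, with 3 against 246 UMIs. Among all genes 6.94% were higher and 6.60% lower. Cldn5, Cldn16 and Cldn19 then lay above the control, at 1.15, 0.58 and 0.75, and Cldn7 and Cldn8 below it, at -0.67 and -0.41.

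At 60 min in kidney, 1 of 10 claudins was higher past 2-fold and 1 lower, where 10.5 and 1.18% of all genes were. Cldn5 had 16.0 CPM at 60 min, against 6.12 in the control and 2.83 at 15 min, a log2 ratio to the control of 1.39 (1.17 to 1.61), while endothelial-like cells made up 8.66, 3.81 and 20.8%. Cldn4 was lower at -1.29, with 158 against 249 UMIs. Cldn16 had 1.75, 0.537 and 3.25 CPM, Cldn19 4.52, 1.87 and 8.33, Cldn1 2.76, 2.75 and 4.83, and Cldn3 2.41, 0.863 and 2.79. At 60 min these 4 lay between 0.21 and 0.89 on the log2 scale and Cldn10 at -0.60, all within 2-fold. When no upper bound was set on the genes and mitochondrial share of a cell, Cldn5 and Cldn4 were within 2-fold at 60 min, at 0.31 and -0.57, and Cldn19 passed it at 1.12. At 15 min Cldn5 was then at -2.27, Cldn4 at -4.85 and Cldn19, within 2-fold, at -0.96. Outside the proximal tubule gate, Cldn1 was higher at 1.38 and Cldn4 lower at -1.88, where 3.82 and 1.43% of genes were.

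**Figure D4:**
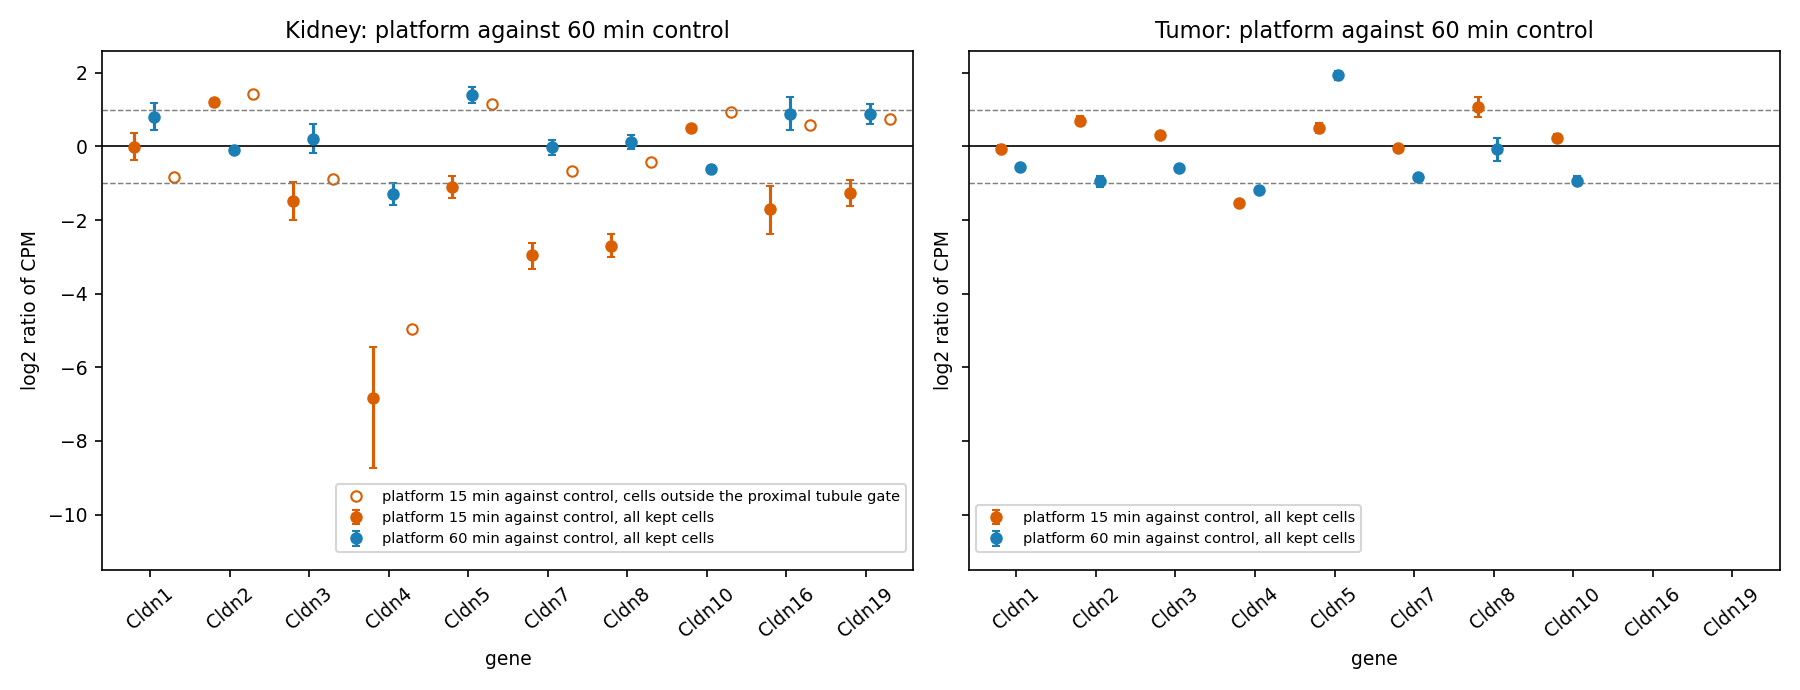
Log2 ratio of CPM between each platform library and the control, for the 10 claudins in kidney and the 8 with at least 20 UMIs in the tumor; bars are exact 95% intervals for counting error, dashed lines mark 2-fold, and open points are kidney cells outside the proximal tubule gate at 15 min. The kidney 15 min points spread from 1.20 for Cldn2 to -6.83 for Cldn4, and outside the gate Cldn4 stays the lowest at -4.97.

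Over whole tumor libraries, Cldn4 was below the control in both platform libraries. It had 154 CPM (150.1 to 157) in the control, 53.0 (51.0 to 54.9) at 15 min and 68.3 (66.2 to 70.4) at 60 min, log2 ratios of -1.54 (-1.60 to -1.47) and -1.17 (-1.22 to -1.11). At 15 min, 1 of 8 claudins tested was lower, where 3.80% of genes were, and 1 higher, Cldn8 at 1.08 (0.81 to 1.35), where 3.57% were. Cldn8 had 3.30, 6.97 and 3.12 CPM in the control, 15 min and 60 min libraries, and with no upper bound on genes and mitochondrial share it was within 2-fold, at 0.92. At 60 min, 1 was higher and 1 lower, where 9.09 and 2.72% of genes were. The higher 1 was Cldn5, with 13.7, 19.5 and 52.0 CPM and a log2 ratio of 1.93 (1.81 to 2.05), while endothelial-like cells made up 4.57, 3.52 and 12.0%.

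The other epithelial claudins were lower at 60 min without passing 2-fold. Cldn3 had 710.5, 889 and 477 CPM, Cldn7 341, 331 and 191, Cldn1 36.9, 35.4 and 24.8, Cldn2 16.3, 26.4 and 8.46, and Cldn10 26.1, 30.8 and 13.7. Their log2 ratios at 60 min ran from -0.57 for Cldn1 to -0.95 for Cldn2, beside a median of 0.01 over all genes tested. Epithelial-like cells made up 60.5, 67.5 and 40.2% of the libraries. Within these cells the same 5 genes were at -0.01 to -0.46.

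The platform libraries were also set against each other. In kidney, 7 of 10 claudins were higher past 2-fold at 60 min than at 15 min, where 43.2% of all genes were, and 2 were lower, Cldn2 at -1.29 and Cldn10 at -1.09, where 5.13% were. In the tumor, 1 of 8 was higher, Cldn5 at 1.42, where 9.56% of genes were, and 3 were lower, Cldn2 at -1.64, Cldn10 at -1.17 and Cldn8 at -1.16, where 5.91% were. Within tumor epithelial-like cells Cldn4 was higher at 60 min than at 15 min, at 1.15 (1.08 to 1.22), where 3.21% of genes were higher and 2.64% lower. Other claudins passed 2-fold elsewhere at low levels. Cldn3, Cldn7 and Cldn8 were higher in kidney proximal tubule-like cells (1.91, 1.01 and 1.12 CPM at 60 min, where 13.4% of genes were higher). In the tumor, Cldn3 was lower in T lymphocyte-like, endothelial-like, macrophage-like and fibroblast-like cells (5.71, 4.26, 4.31 and 9.56% of genes lower). Cldn7 was lower in T lymphocyte-like cells, and Cldn10 was higher in fibroblast-like cells (63 against 0 UMIs, 7.79% of genes higher).

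Claudins past 2-fold were also counted within gated cell types, beside the share of all genes called there. Each pair below is 1 claudin in 1 cell type. In kidney at 15 min, 2 of 15 pairs were lower. These were Cldn7 in proximal tubule-like cells, with 3 against 19 UMIs, and Cldn10 in B lymphocyte-like cells, where 4.96 and 3.80% of genes were lower. At 60 min, 4 of 24 pairs were higher. Cldn10 and Cldn2 in endothelial-like cells (17.5 and 3.76 CPM at 60 min, where 4.33% of genes were higher), Cldn2 in macrophage-like cells (2.54 CPM, 4.15%) and Cldn3 in proximal tubule-like cells (1.91 CPM, 8.99%) made up these. In the tumor, 3 of 13 pairs passed at 15 min, Cldn4 lower in epithelial-like cells and in macrophage-like cells (0.649 CPM, where 4.71% of genes were lower) and Cldn3 higher in T lymphocyte-like cells (14.6 CPM, where 7.36% were higher). At 60 min, 4 of 13 were lower, Cldn3 and Cldn7 in endothelial-like cells (4.57 and 3.34 CPM, where 3.56% of genes were lower) and Cldn4 and Cldn7 in macrophage-like cells (0.715 and 2.34 CPM, 2.52%). Except for Cldn4 in tumor epithelial-like cells, every such pair was at under 30 CPM in both libraries, and whether free RNA in the droplets gave these UMIs was not tested.

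Other claudins and tight junction genes were counted from lists. Of the 25 other claudin-type symbols, 2 reached 20 CPM in a cell type of at least 50 cells, in each tissue Cldn15 and Cldnd1. Cldn15, a pore-forming claudin, had 265 CPM in kidney endothelial-like cells and, over whole kidney libraries, log2 ratios to the control of -1.19 at 15 min and 1.74 at 60 min. In tumor endothelial-like cells Cldn15 was at 13.1 CPM, and its highest tumor cell type was pericyte-like at 36.0. Of the 25 with enough UMIs, Cldn15 included, 2 of 5 were lower at 15 min in kidney (28.5% of all genes) and 1 of 5 higher at 60 min (10.5%). In the tumor 1 of 6 was higher at 15 min (3.57% of all genes) and 2 of 7 at 60 min (9.09%).

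Of 20 further tight junction genes, including the occludin family, the Tjp scaffold proteins and the junctional adhesion molecules, 5 were lower and none higher in the whole kidney library at 15 min, where 28.5% of all genes were lower. These were Ildr1 (-2.49), Tjp3 (-1.32), Esam (-1.31), Tjp1 (-1.20) and Jam2 (-1.19). At 60 min 5 were higher, where 10.5% of all genes were, Esam (1.62), Jam2 (1.58), Jam3 (1.21), Tjp1 (1.05) and Magi3, just past 2-fold, each highest in endothelial-like cells. Within proximal tubule-like cells 0 of 17 passed at 15 min, where 0.686% of all genes were higher and 4.96% lower, and 2 of 19 were higher at 60 min, where 8.99% were higher and 0.513% lower. In the tumor 0 of 20 passed at 15 min, where 3.57% of all genes were higher and 3.80% lower. At 60 min Jam3, Esam and Jam2 were higher there (1.87, 1.69 and 1.30) and Ocln and Pard6b lower (-1.09 and -1.04), where 9.09 and 2.72% of all genes were. Within tumor epithelial-like cells 0 of 19 passed at either time. Of all genes there, 2.34% were higher and 4.04% lower at 15 min, and 1.97 and 1.94% at 60 min. The medians of the 19 were 0.19 and -0.13, beside 0.19 and -0.02 over all genes tested.

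The genes most like each claudin across cell types were found by Pearson correlation of log2(CPM + 1), over 12 kidney or 9 tumor cell types that share libraries. Only genes that reached 50 CPM in a cell type were searched. For Cldn2 they included Keg1 (0.973) and Tmigd1 (0.972). For Cldn16 they were Tmem207, itself a marker (0.966), Irx2 and Pcsk6, and for Cldn19 Pla1a (0.964), Slc12a1, the salt transporter of this segment and itself a marker, and Pcsk6. Cldn10 was less closely matched, with Enpp2 at 0.904 followed by Slc5a1 and Iah1. In the tumor, Cldn3 was matched by Atp6v1b1 (0.998), Slc5a8 and the marker Wfdc18, Cldn7 by Col9a1 (0.983), Csn1s1, a marker, and C530043A13Rik, and Cldn4 by the polarity gene Crb3 (0.982), Slc28a3 and the marker Elf5. Cldn5 was matched by Hba-a1 (0.992), Ccl21a and Btnl9, and Cldn1 by Bcl2l14 (0.976), Ly6d and Plet1.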

How the data were processed

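Single-cell RNA libraries of mouse kidney and MMTV-PyMT mammary tumor were analysed, 1 per condition. The authors deposited raw UMI counts per gene and cell, made with Cell Ranger 3.1.0 on the mm10 genome (per the submitters' notes) and joined with read depth evened between libraries. Here, cells were kept with at least 200 genes, at most 3000 (kidney) or 4000 (tumor) genes, and at most 50 or 25% mitochondrial UMIs. A cell entered a cell type with at least 3 of its markers and at most 2 of every unrelated list. Tumor cells that passed the basal and the epithelial list, and no other, were called basal-like. This gate rule was set after the files had been read. Doublets were removed only through the gene limit and by leaving out cells that passed unrelated lists. UMIs were summed per library and cell type. Between cells with and without a claudin, genes were ordered by the ratio of CPM + 1, among those at 50 CPM or more on the higher side (100 CPM for lower genes) in at least 20% of those cells, after the values had been seen. A few of the first 10 genes in each direction are named.

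The claudins, the marker and tight junction lists and the rules were chosen with earlier results of these data known. All claudins were named, other claudins at 20 CPM or more in a cell type, and the 3 most similar genes, of which 1 is not reported here. Alternatives were other filters, gates, thresholds, scaling and Leiden clusters. Counts were checked on simulated data. Software was Python 3.11.15, numpy 2.4.6, scipy 1.17.1, pandas 2.3.3, scanpy 1.11.5 and matplotlib 3.10.9.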

Additional observations from a re-analysis of the deposited data

Results flagged for a closer look

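Kidney and tumor lay on opposite sides of the control for 4 claudins over whole libraries, with 1 library each, and these differences were not tested. At 60 min Cldn1 had a log2 ratio of 0.81 in kidney and -0.57 in the tumor, a difference of 1.38. At 15 min Cldn3 had -1.48 and 0.32 (difference -1.80), Cldn5 -1.11 and 0.51 (-1.62) and Cldn8 -2.69 and 1.08 (-3.77). Over kidney cells outside the proximal tubule gate, Cldn5 had 1.15 at 15 min, on the same side as the tumor, while Cldn3 had -0.89 and Cldn8 -0.41.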

How the results depend on the processing

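With 1 library per condition, counting error is the only error shown, and levels resting on few UMIs (Cldn1, Cldn3, Cldn4 and Cldn16 in kidney, Cldn8 in the tumor) are the least precise. Of the 10 kidney claudins at 60 min, 1 passed without upper limits on genes and mitochondrial share and 6 at 1.5-fold. In the tumor, 1 of 8 passed at 15 min without these limits and 5 of 8 at 60 min at 1.5-fold. Pairs within cell types at 15 and 60 min numbered 0 and 1 in kidney and 1 and 0 in the tumor with at least 100 UMIs. With the stricter marker gate they numbered 0 and 2 in kidney and 1 in the tumor at 15 min. With Leiden clusters they numbered 4 and 12 in kidney and 7 and 16 in the tumor, where more pairs were tested, and the split moved: 4 higher and 0 lower in kidney at 15 min (0 and 2 with the gate), 7 and 5 at 60 min (4 and 0), 3 and 4 in the tumor at 15 min (1 and 2) and 6 and 10 at 60 min (0 and 4). Added after the data were seen, cells outside the proximal tubule gate gave 3 kidney claudins at 15 min, and turned the direction of Cldn5 (1.15), Cldn16 (0.58) and Cldn19 (0.75). The other counts stayed within 1.5 times of those reported. The kidney cell type with the highest level was the same for all 10 claudins without the 15 min library, also added later. It moved to intercalated-like cells for Cldn3 and Cldn7 without upper limits and for Cldn7 and Cldn8 with Leiden clusters, and for Cldn4 to a cluster named stromal. For Cldn1 it moved to proximal tubule-like and tumor epithelial-like cells under the stricter gate, which left fewer than 50 dendritic-like cells. Cldn8 in the tumor moved from basal-like to epithelial-like cells with libraries weighted equally. The causes were not tested except where the smaller or larger number tested shows them. No paired analysis was possible because the labels carry no replicate numbers and each condition has 1 library, though the libraries of a tissue share a source mouse by the study's reporting summary.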
